A study of Mus musculus with 24 samples.

Results

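The genes described here encode the working parts of the lysosome: the enzymes that break macromolecules down, the membrane and lipid transfer proteins around them, and the proton pump that keeps the organelle acidic. They were taken by name from a fixed list of 37 gene symbols, all 37 of which were found among the 24016 symbols of the deposited table, and a symbol with several transcripts was represented by the one of highest mean level. The list held 9 cathepsins, 8 other hydrolases, 10 membrane and lipid transfer proteins, 8 subunits of the proton pump and 2 regulators. Poly(A) RNA was sequenced from hindlimb muscles of C57BL/6 mice 7 days after the femoral artery of 1 hindlimb had been ligated, with 6 libraries in each of 4 groups. The groups were ischemic gastrocnemius of type 2 diabetic mice, ischemic gastrocnemius of control mice, normoxic adductor of type 2 diabetic mice and normoxic adductor of control mice. All 4 groups share the background strain and the operation, no muscle of an unoperated animal is among them, and the labels used here do not say how diabetes was produced or how old the animals were. The gastrocnemius differs from the adductor both in being ischemic and in being another muscle, so ischemia and muscle identity cannot be told apart in any comparison of them.

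Lysosomes receive material from endocytosis, phagocytosis and autophagy and digest it with hydrolases that work at acid pH. The acid is made by the vacuolar ATPase (V-ATPase), a rotary pump in which the cytosolic V1 sector splits ATP and the membrane V0 sector moves protons. Every nucleated cell has lysosomes, but macrophages, which clear dead fibres from injured muscle, carry many of them, and muscle fibres depend on them for autophagy and glycogen turnover. The transcription factor TFEB binds a palindromic E-box motif in the promoters of many lysosomal genes.

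Levels are RPKM as computed by the authors, that is, read counts divided by exon length and by the library total, so levels of different genes can be compared per length. Differences are log2 differences of RPKM + 0.5 with their standard error (SE) from limma, and a gene is said to rise or fall only where its p-value, adjusted over all 12382 tested genes by the Benjamini-Hochberg method, was under 0.05. Each library held 7.13 to 15.6 M reads. The level of Gapdh, a glycolytic enzyme, parted the libraries into sets for which the labels have no name. In both muscles, replicates 1 to 4 of diabetic and 1 to 3 of control mice, 14 libraries called the first set here, had 677 to 1757 RPKM, and the other 10 libraries, the second set, had 0.365 to 13.7 RPKM. Both sets hold libraries of every group. The labelled tissue matched its markers, since 10 transcripts of mature muscle fibres summed to 15580 to 113800 RPKM in every library. In bulk muscle, fewer cells of a type and less RNA per cell cannot be told apart.

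Lysosomal transcripts were higher in gastrocnemius than in adductor in both mouse groups. All 37 members passed the filter on low values. In diabetic mice 28 of the 37 rose and 2, Gaa and Sqstm1, fell, against 48.1% of all tested genes that rose, 8.83% that fell and 56.9% that did either. In control mice 30 members rose and 1, Tfeb, fell, against 54.4%, 8.7% and 63.1% of all tested genes. The same 28 members rose in both mouse groups. The median log2 difference of the members was 1.39 in diabetic mice and 1.84 in control mice, beside medians of 0.55 and 0.66 over all tested genes. Atp6v0d2 was under 1 RPKM in every adductor library and so was tested only through its level in gastrocnemius. Of the other 36 members, 27 rose and 2 fell in diabetic mice and 29 rose and 1 fell in control mice.

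RPKM shares 1 total among all genes, and most genes lay above 0 in these comparisons. When the libraries were instead scaled by median-of-ratios, the all-gene medians were -0.04 in diabetic and -0.02 in control mice. The members then split into 20 higher and 5 lower in diabetic mice, against 27.3% and 26.5% of all tested genes (53.8% in either direction), and into 22 higher and 5 lower in control mice, against 28.3% and 26.5% (54.8% in either direction). The members' medians under that scaling were 0.70 and 1.04. On the RPKM scale 29 of 37 members lay above the all-gene median in diabetic mice and 28 of 37 in control mice.

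**Figure D1:**
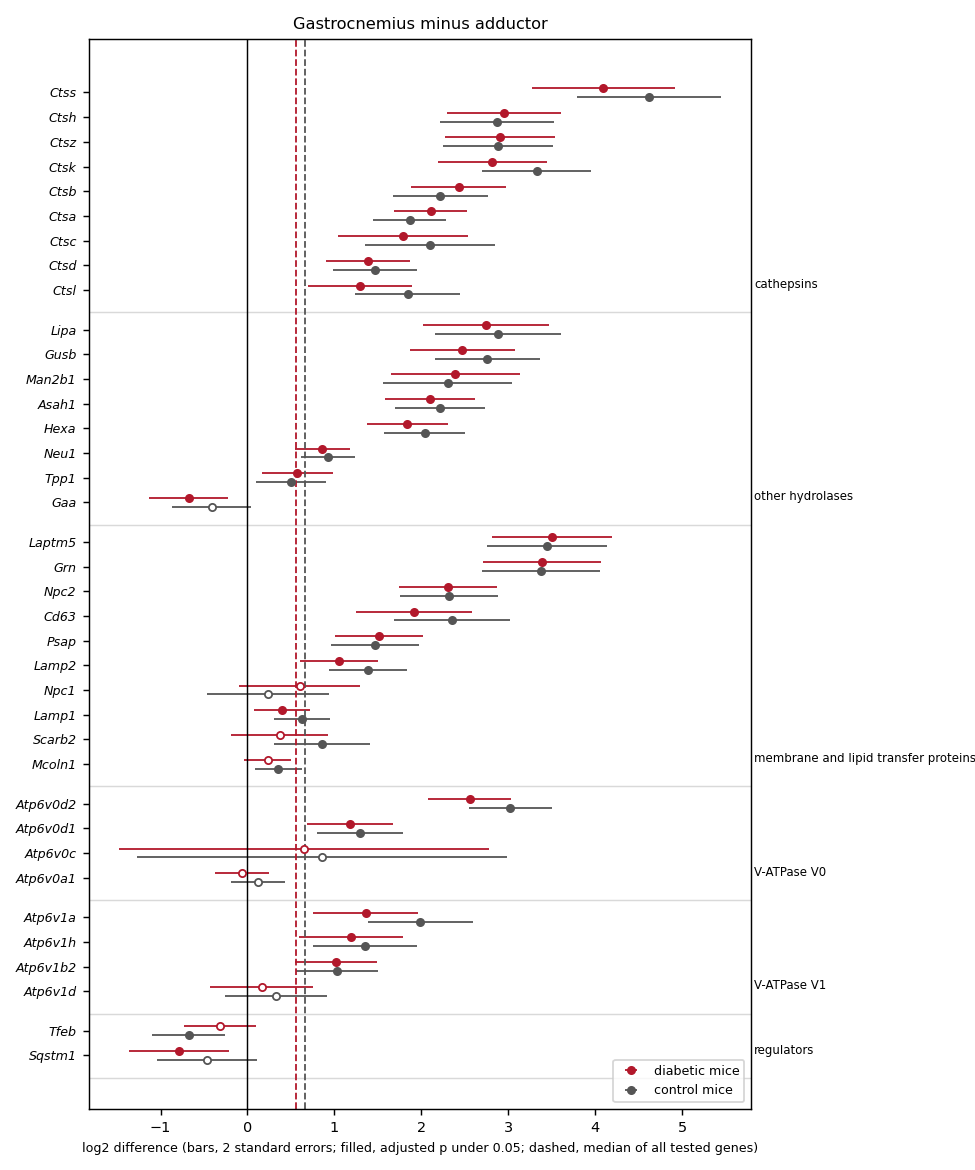
Log2 difference of RPKM + 0.5, gastrocnemius minus adductor, for each of the 37 members grouped by role, in diabetic mice (red) and control mice (grey). Bars span 2 standard errors either way, filled points passed an adjusted p of 0.05 and dashed lines mark the median of all tested genes. The cathepsins lie between 1.29 and 4.62, while Gaa, Tfeb and Sqstm1 lie below 0 in both mouse groups. Under median-of-ratios scaling Lamp1, Tpp1, Mcoln1, Npc1, Atp6v1d and Atp6v0a1 also lie below 0 in both, and Scarb2 and Atp6v0c in diabetic mice.

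The promoters of these genes were searched for the E-box motif that TFEB is known to bind, because one of the members is TFEB itself. Windows from 250 bases before to 50 bases after the transcription start were taken from RefSeq (build GRCm38.p6) and were at hand for 30 of the 37 members. The full element, which adds a G before and a C after the core TCACGTGA, was in 0 of the 30 members' windows and in the windows of 0.37% of 27025 genes. The core was in 5 of 30 members (16.7%), against 1.12% of genes, and the shorter CACGTG was in 8 of 30 members (26.7%), against 8.09% of genes. All of these motifs are palindromes, so both strands read alike, and each longer motif contains the shorter one. The windows below show the 5 genes with the core and Lamp1, which has the shorter motif 4 times, each on its gene's own strand with the motif in capitals.
Ctsa, chr2:164833710-164833817, plus strand: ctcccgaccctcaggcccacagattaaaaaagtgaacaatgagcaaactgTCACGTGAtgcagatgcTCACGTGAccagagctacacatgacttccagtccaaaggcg
Ctsd, chr7:142387869-142387976, minus strand: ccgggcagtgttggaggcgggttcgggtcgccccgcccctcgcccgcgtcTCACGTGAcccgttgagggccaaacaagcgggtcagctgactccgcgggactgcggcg
Mcoln1, chr8:3500423-3500530, plus strand: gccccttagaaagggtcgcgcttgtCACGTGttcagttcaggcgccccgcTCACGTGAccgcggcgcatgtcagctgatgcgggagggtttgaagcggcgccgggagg
Atp6v0d1, chr8:105566015-105566118, minus strand: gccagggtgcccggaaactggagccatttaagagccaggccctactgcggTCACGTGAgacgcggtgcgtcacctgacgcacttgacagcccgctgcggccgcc
Atp6v1a, chr16:44139334-44139441, minus strand: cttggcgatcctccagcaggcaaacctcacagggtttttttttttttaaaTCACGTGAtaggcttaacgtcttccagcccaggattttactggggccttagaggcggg
Lamp1, chr8:13159050-13159155, plus strand: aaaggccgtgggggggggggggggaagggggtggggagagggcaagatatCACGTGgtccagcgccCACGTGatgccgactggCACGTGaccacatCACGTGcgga

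In Ctsd, which encodes the main aspartic protease of the lysosome, the core began 99 bases before the start, and in Ctsa it was present 2 times, first at 13 bases before the start. The core began 4 bases before the start in Atp6v0d1, 46 in Mcoln1 and 132 in Atp6v1a. The other 2 members with the shorter motif were Ctsl and Gaa. Between the muscles the 5 members with the core had log2 differences of 0.23 to 2.11 in diabetic mice (median 1.36) and 0.35 to 1.99 in control mice (median 1.47). The 25 members whose window lacked it had medians of 1.51 and 1.84. A match describes the letters of the window and not the binding of any factor.

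All 9 cathepsins rose in gastrocnemius in both mouse groups, against 48.1% of all tested genes in diabetic and 54.4% in control mice. Their median log2 differences were 2.43 in diabetic and 2.22 in control mice. Ctss, a cysteine protease of antigen-presenting cells that trims the invariant chain of MHC class II, had the largest difference of all 37 members. Its lowest, median and highest RPKM were 99.4, 249 and 288 in diabetic gastrocnemius, 69.4, 271 and 307 in control gastrocnemius, 7.26, 12.7 and 15.1 in diabetic adductor, and 3.94, 7.87 and 30.5 in control adductor. Every gastrocnemius library lay above every adductor library of its mouse group. The log2 difference was 4.09 ± 0.41 in diabetic mice (adjusted p = 4.5e-08) and 4.62 ± 0.41 in control mice (adjusted p = 1.1e-08). Within the first and second library sets it was 4.29 and 3.71 in diabetic mice and 4.03 and 5.21 in control mice.

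Ctsk encodes a collagen-degrading cathepsin best known from osteoclasts. It had 21.5, 31.3 and 39.5 RPKM (lowest, median, highest) in diabetic gastrocnemius, 24.4, 47.2 and 60.1 in control gastrocnemius, 1.92, 3.73 and 7.47 in diabetic adductor, and 1.86, 3.88 and 8.22 in control adductor. The muscles did not overlap in either mouse group, with log2 differences of 2.82 ± 0.31 in diabetic mice and 3.33 ± 0.31 in control mice (adjusted p = 1.4e-07 and 2.1e-08). Osteoclasts were not the labelled tissue. Of 6 transcripts used as their markers, Calcr, Oscar, Ocstamp and Dcstamp reached at most 0.406, 0.491, 1.18 and 0.838 RPKM in any library. The other 2, which other cells also express, were tested. Mmp9, a gelatinase, had medians of 2.56 RPKM in diabetic gastrocnemius, 10.3 in control gastrocnemius, 0.792 in diabetic adductor and 0.840 in control adductor, and rose by 1.23 ± 0.52 and 2.40 ± 0.52 (adjusted p = 0.048 and 0.00034). Nfatc1, a transcription factor, ran from 3.02 to 11.4 RPKM and did not pass. The part of such cells in the Ctsk difference was not tested.

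The carboxypeptidase Ctsz had 68.4, 175 and 264 RPKM in diabetic gastrocnemius, 61.6, 167 and 212 in control gastrocnemius, 11.7, 21.8 and 30.2 in diabetic adductor, and 11.5, 19.4 and 31.1 in control adductor. Its log2 differences between muscles were 2.90 ± 0.32 in diabetic mice and 2.89 ± 0.32 in control mice, again with no overlap. Ctsh, an aminopeptidase, followed with 2.95 ± 0.33 and 2.87 ± 0.33. Ctsb, one of the most abundant cysteine cathepsins, averaged 377 ± 111 RPKM in diabetic gastrocnemius, 369 ± 122 in control gastrocnemius, 69.4 ± 22.2 in diabetic adductor and 76.3 ± 19.1 in control adductor (SD, n = 6 each), and rose by 2.43 ± 0.27 and 2.22 ± 0.27.

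Ctsa, the protective protein that stabilises the sialidase Neu1, had 35.2, 67.7 and 71.4 RPKM in diabetic gastrocnemius, 30.4, 55.9 and 76.3 in control gastrocnemius, 11.4, 12.7 and 17.7 in diabetic adductor, and 10.5, 14.4 and 18.7 in control adductor. The muscles were apart in both mouse groups, by 2.11 ± 0.21 and 1.87 ± 0.21 on the log2 scale. Ctsc, which activates the serine proteases of leukocyte granules, rose by 1.79 ± 0.37 in diabetic and 2.10 ± 0.37 in control mice, but in the second library set the diabetic value was 0.81 and did not pass (adjusted p = 0.056).

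The smallest differences among the cathepsins belonged to Ctsd and Ctsl. Ctsd was the most abundant cathepsin in every group, with 375, 657 and 767 RPKM in diabetic gastrocnemius, 318, 607 and 740 in control gastrocnemius, 150, 228 and 350 in diabetic adductor, and 136, 201 and 266 in control adductor. It rose by 1.39 ± 0.24 in diabetic and 1.47 ± 0.24 in control mice, with no overlap between muscles. Ctsl, a cysteine endopeptidase, had 56.3, 123.5 and 189 RPKM in diabetic gastrocnemius, 61.2, 187 and 198 in control gastrocnemius, 32.3, 50.1 and 56.9 in diabetic adductor, and 28.3, 47.8 and 68.5 in control adductor. It was the only cathepsin whose muscles overlapped, in both mouse groups. It rose by 1.29 ± 0.30 in diabetic and 1.84 ± 0.30 in control mice, but with median-of-ratios scaling the diabetic value was 0.61 with an adjusted p of 0.085. Words of 31 bases were taken from all annotated transcripts of each gene, not from the measured transcript alone. Of these, 33.2% in Ctsd also occurred in 1 other gene of the annotation, and 28.2% in Ctsl occurred among 1286 other genes. Their levels could share reads with other genes, which was not tested.

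**Figure D2:**
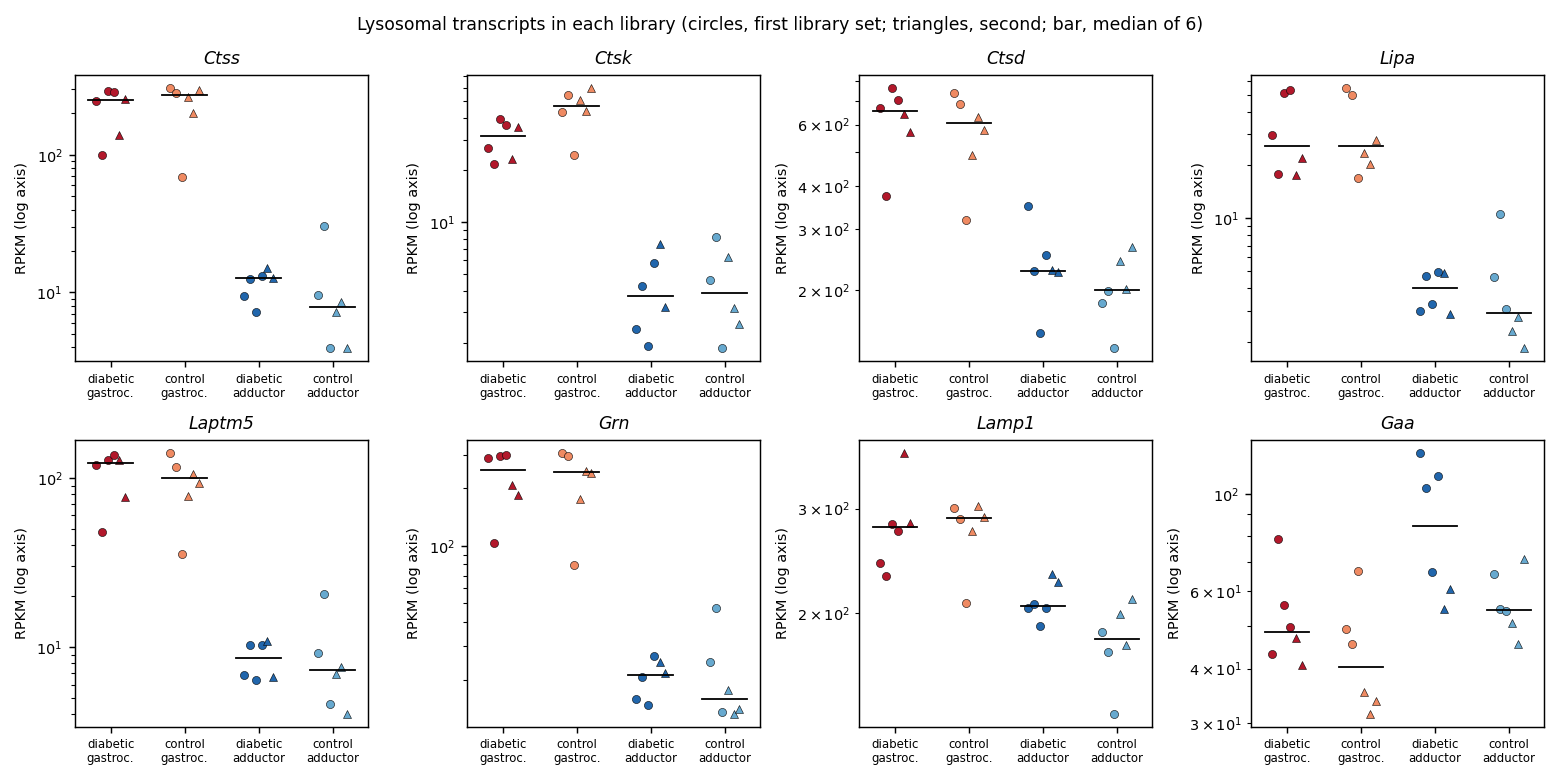
RPKM of 8 members in each of the 24 libraries on log axes, by group, with circles for the first and triangles for the second library set and a bar at the median of 6. The 6 genes Ctss, Ctsk, Ctsd, Lipa, Laptm5 and Grn show no overlap between gastrocnemius and adductor within a mouse group, Lamp1 overlaps, and Gaa has lower medians in gastrocnemius (48.4 and 40.4 RPKM) than in adductor (84.6 and 54.3 RPKM).

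Among the other hydrolases 7 of 8 rose in each mouse group, against 48.1% of all tested genes in diabetic and 54.4% in control mice. The class medians were 1.97 in diabetic and 2.13 in control mice. Lipa, the acid lipase that frees cholesterol and fatty acids from lipoprotein lipids, had the largest difference. It had 17.5, 25.7 and 53.4 RPKM in diabetic gastrocnemius, 16.8, 25.6 and 54.9 in control gastrocnemius, 2.85, 3.999 and 4.94 in diabetic adductor, and 1.84, 2.90 and 10.5 in control adductor. Every gastrocnemius library exceeded every adductor library of its mouse group, by log2 differences of 2.75 ± 0.36 and 2.88 ± 0.36 (adjusted p = 1.2e-06 and 5.5e-07).

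Gusb, which removes glucuronic acid from glycosaminoglycans, had 18.2, 30.2 and 47.9 RPKM in diabetic gastrocnemius, 14.7, 29.4 and 50.4 in control gastrocnemius, 3.93, 5.11 and 6.15 in diabetic adductor, and 2.62, 3.71 and 8.29 in control adductor. Man2b1, the acid mannosidase of glycoprotein turnover, had 12.8, 26.5 and 51.2 RPKM in diabetic gastrocnemius, 15.2, 19.0 and 49.1 in control gastrocnemius, 3.62, 4.33 and 6.53 in diabetic adductor, and 2.71, 3.76 and 10.7 in control adductor. Neither gene overlapped between muscles. Gusb rose by 2.47 ± 0.30 in diabetic and 2.76 ± 0.30 in control mice, and Man2b1 by 2.39 ± 0.37 and 2.30 ± 0.37. Asah1, the acid ceramidase, rose by 2.10 ± 0.26 and 2.22 ± 0.26, and Hexa, a subunit of hexosaminidase A, by 1.84 ± 0.23 and 2.04 ± 0.23.

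The sialidase Neu1 rose by 0.86 ± 0.16 in diabetic and 0.93 ± 0.16 in control mice, from low levels whose group means ran from 3.23 to 6.47 RPKM. With median-of-ratios scaling it did not pass in either mouse group (0.25 and 0.20). The tripeptidyl peptidase Tpp1 differed by 0.57 ± 0.20 in diabetic and 0.50 ± 0.20 in control mice, and its sign turned with median-of-ratios scaling to -0.10 and -0.28. Its adjusted p of 0.020 and 0.036 rested on single libraries: it missed the threshold in 3 fits of diabetic and 5 of control mice that left out 1 library each, at 0.469 to 0.487 and 0.377 to 0.493.

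Gaa stood apart from the other hydrolases. It encodes acid alpha-glucosidase, which degrades glycogen in lysosomes and whose loss causes Pompe disease of heart and skeletal muscle. Gaa had 40.8, 48.4 and 79.0 RPKM in diabetic gastrocnemius, 31.6, 40.4 and 66.7 in control gastrocnemius, 54.6, 84.6 and 124.0 in diabetic adductor, and 45.6, 54.3 and 70.9 in control adductor. The muscles overlapped in both mouse groups. It fell by 0.68 ± 0.23 on the log2 scale in diabetic mice (adjusted p = 0.014), and in control mice its difference of -0.41 ± 0.23 did not pass (adjusted p = 0.12). Within the first and second library sets the difference was -0.82 and -0.39 in diabetic mice and -0.12 and -0.70 in control mice. In control mice it passed in the second set (adjusted p = 0.0060), without gastrocnemius library 3 (-0.54, adjusted p = 0.038), after quantile normalization (-0.87, adjusted p = 0.0064) and after median-of-ratios scaling (-1.21, adjusted p = 0.00019). In diabetic mice it did not pass in the second set (adjusted p = 0.15), and with median-of-ratios scaling it was -1.36. Of 10 transcripts of mature muscle fibres, 5 fell in diabetic mice and 7 in control mice, against 8.83% and 8.7% of all tested genes. Their summed levels were 20310 to 66720 RPKM in diabetic and 15580 to 63430 in control gastrocnemius. In adductor they were 46830 to 102100 RPKM in diabetic and 58670 to 113800 in control mice. Between mouse groups, diabetic minus control, their median log2 difference was -0.31 in adductor, beside 0.54 for Gaa, and 0.17 in gastrocnemius, beside 0.28 for Gaa. None of these differences between mouse groups passed. The part of the fibre transcripts in the Gaa difference between muscles was not tested.

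Of the 10 membrane and lipid transfer proteins, 7 rose in diabetic and 9 in control mice, against 48.1% and 54.4% of all tested genes. Their medians were 1.28 and 1.43. Laptm5, a lysosomal membrane protein of blood-derived cells, and Grn, the progranulin precursor of granulin peptides, had the largest differences. Laptm5 had 47.7, 123 and 138 RPKM in diabetic gastrocnemius, 35.7, 99.96 and 141 in control gastrocnemius, 6.40, 8.57 and 10.8 in diabetic adductor, and 4.05, 7.29 and 20.6 in control adductor. Its muscles lay apart by 3.50 ± 0.35 in diabetic and 3.44 ± 0.35 in control mice (adjusted p = 4.0e-08 and 3.4e-08). Grn had 103.5, 249 and 299 RPKM in diabetic gastrocnemius, 79.7, 244 and 307 in control gastrocnemius, 14.8, 21.1 and 26.4 in diabetic adductor, and 13.3, 15.8 and 47.4 in control adductor. It likewise showed no overlap, and rose by 3.39 ± 0.34 and 3.38 ± 0.34.

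Cd63, a tetraspanin of late endosomes and lysosomes, had 142, 280.2 and 409 RPKM in diabetic gastrocnemius, 147, 246 and 379 in control gastrocnemius, 35.6, 66.2 and 123.5 in diabetic adductor, and 35.3, 47.8 and 82.2 in control adductor. The muscles did not overlap, and it rose by 1.92 ± 0.33 in diabetic and 2.35 ± 0.33 in control mice. Npc2, the soluble carrier that hands cholesterol to Npc1, rose by 2.31 ± 0.28 and 2.32 ± 0.28. Npc1 itself, the membrane exporter of that cholesterol, did not pass in either mouse group, with differences of 0.60 ± 0.35 (adjusted p = 0.15) and 0.24 ± 0.35 (adjusted p = 0.57) that turned to -0.05 and -0.53 with median-of-ratios scaling. Psap, the precursor of the saposins that present sphingolipids to their hydrolases, was the most abundant member in gastrocnemius by group mean, at 700.1 ± 248 RPKM in diabetic and 638 ± 218 in control gastrocnemius, beside 234 ± 32.9 in diabetic and 221 ± 37.2 in control adductor (SD, n = 6 each). It rose by 1.51 ± 0.25 and 1.47 ± 0.25.

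Lamp1, Lamp2, Scarb2 and Mcoln1 had smaller differences. Lamp1, the most abundant glycoprotein of the lysosomal membrane, had 231, 279 and 372 RPKM in diabetic gastrocnemius, 208, 289 and 303 in control gastrocnemius, 190.1, 206 and 233 in diabetic adductor, and 136, 181 and 211 in control adductor. The muscles overlapped in both mouse groups. Its difference of 0.40 ± 0.16 in diabetic mice (adjusted p = 0.038) and 0.62 ± 0.16 in control mice (adjusted p = 0.0018) lay just below the median of all tested genes (0.55 and 0.66), and its sign turned with median-of-ratios scaling to -0.28 and -0.18. The diabetic value also missed the threshold in 8 fits that left out 1 library each, at 0.317 to 0.403, and when only the libraries of diabetic mice were fitted (adjusted p = 0.11). Lamp2, its relative needed for autophagosome fusion and chaperone-mediated autophagy, rose by 1.05 ± 0.23 and 1.39 ± 0.23, though with median-of-ratios scaling the diabetic value was 0.38 with an adjusted p of 0.068.

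Scarb2, also called LIMP2, carries beta-glucocerebrosidase to the lysosome. It had 26.8, 36.7 and 51.4 RPKM in diabetic gastrocnemius, 24.2, 34.8 and 48.4 in control gastrocnemius, 17.5, 29.7 and 45.1 in diabetic adductor, and 10.99, 20.4 and 31.7 in control adductor. The muscles overlapped in both mouse groups. Its difference was 0.37 ± 0.28 in diabetic mice (adjusted p = 0.27), a sign that turned with median-of-ratios scaling (-0.31), and it rose by 0.86 ± 0.28 in control mice (adjusted p = 0.0097), where that scaling left 0.07. The lysosomal calcium channel Mcoln1 differed by 0.23 ± 0.14 (adjusted p = 0.15) in diabetic and 0.35 ± 0.14 (adjusted p = 0.026) in control mice, and with median-of-ratios scaling it was called lower in both (-0.41 and -0.40, adjusted p = 0.016 and 0.019). Its call in control mice was also lost in 4 fits that left out 1 library each, at 0.300 to 0.334.

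Among the 8 subunits of the proton pump 5 rose and 0 fell in each mouse group. That is 62.5%, near the 48.1% of all tested genes that rose in diabetic and the 54.4% in control mice. Without Atp6v0d2, tested only through gastrocnemius, 4 of 7 rose (57.1%), with medians of 1.02 in diabetic and 1.03 in control mice. With median-of-ratios scaling 1 of these 7, Atp6v1a, rose and 1, Atp6v0a1, fell in each mouse group (14.3% higher, against 27.3% and 28.3% of all tested genes). Atp6v0d2 is a V0 subunit, an alternative to the ubiquitous Atp6v0d1, known from osteoclasts, macrophages, kidney and epididymis. It had 2.68, 4.69 and 6.26 RPKM in diabetic gastrocnemius, 2.28, 5.70 and 6.56 in control gastrocnemius, 0.129, 0.329 and 0.675 in diabetic adductor, and 0.0769, 0.101 and 0.643 in control adductor. These levels rested on 77 to 227 reads in gastrocnemius libraries and 2 to 23 in adductor libraries. All gastrocnemius libraries exceeded all adductor libraries, with log2 differences of 2.56 ± 0.24 in diabetic mice and 3.02 ± 0.24 in control mice. These are given as a description, since the filter let the gene in through gastrocnemius alone, and they understate the ratio because of the added 0.5.

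Atp6v0d1, the common form of the same subunit, had 28.2, 48.5 and 77.5 RPKM in diabetic gastrocnemius, 25.4, 53.3 and 66.0 in control gastrocnemius, 13.9, 22.7 and 25.2 in diabetic adductor, and 13.1, 20.7 and 29.8 in control adductor. It rose by 1.18 ± 0.25 in diabetic mice, without overlap, and by 1.30 ± 0.25 in control mice, where the muscles overlapped. With median-of-ratios scaling the differences were 0.50 in both mouse groups, with an adjusted p of 0.11. Atp6v0d2 made up 6.22, 8.49 and 11.8% (lowest, median, highest) of the summed RPKM of both d subunits in diabetic gastrocnemius and 7.97, 8.52 and 11.0% in control gastrocnemius. The share was 0.635, 1.52 and 2.80% in diabetic adductor and 0.258, 0.535 and 3.05% in control adductor, so the muscles did not overlap in either mouse group. A share within a library does not change with the scaling of that library. The share is nevertheless a description only, since the filter let Atp6v0d2 in through gastrocnemius alone. In adductor it rested on 2 to 23 reads of Atp6v0d2 per library.

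The catalytic V1 subunit Atp6v1a, where ATP is split, had 14.8, 21.2 and 40.5 RPKM in diabetic gastrocnemius, 16.0, 23.0 and 40.7 in control gastrocnemius, 4.97, 8.56 and 17.4 in diabetic adductor, and 5.07, 5.50 and 9.64 in control adductor. The muscles overlapped in diabetic mice and not in control mice. It rose by 1.36 ± 0.30 in diabetic mice (adjusted p = 0.00055) and 1.99 ± 0.30 in control mice (adjusted p = 6.1e-06). The second V1 subunit of the ATP-splitting ring, Atp6v1b2, had 22.3, 35.6 and 43.2 RPKM in diabetic gastrocnemius, 21.5, 44.5 and 51.3 in control gastrocnemius, 12.6, 15.4 and 22.3 in diabetic adductor, and 12.9, 20.1 and 28.8 in control adductor. It was apart in diabetic mice (1.02 ± 0.24) and overlapped in control mice (1.03 ± 0.24). Atp6v1h, a regulatory V1 subunit, had 8.79, 15.3 and 31.2 RPKM in diabetic gastrocnemius, 8.89, 21.5 and 26.4 in control gastrocnemius, 4.85, 6.86 and 9.19 in diabetic adductor, and 4.39, 6.58 and 12.6 in control adductor, with overlap in both and differences of 1.19 ± 0.30 and 1.35 ± 0.30. With median-of-ratios scaling neither Atp6v1b2 (0.35 and 0.23) nor Atp6v1h (0.54 and 0.58) passed in either mouse group.

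The other V0 subunits did not pass on the RPKM scale in the fit of all libraries with group means alone. Atp6v0a1, one of several forms of the large membrane subunit that lines the proton path, had 16.7, 21.1 and 23.5 RPKM in diabetic gastrocnemius, 16.4, 20.1 and 21.8 in control gastrocnemius, 16.6, 21.0 and 30.8 in diabetic adductor, and 15.4, 16.8 and 27.0 in control adductor. The 4 groups overlapped. Its differences of -0.06 ± 0.16 and 0.12 ± 0.16 (adjusted p = 0.78 and 0.53) became -0.73 and -0.67 with median-of-ratios scaling, where both were called lower.

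Atp6v0c, the proteolipid that forms the rotating ring of V0, was split by library set in all 4 groups. In the first set it had 126 to 242 RPKM in diabetic gastrocnemius, 107 to 227 in control gastrocnemius, 61.6 to 125 in diabetic adductor and 54.0 to 83.8 in control adductor. In the second set the ranges were 3.89 to 12.6, 8.31 to 15.2, 8.37 to 9.69 and 7.68 to 11.2 RPKM in the same groups. Over all libraries the differences between muscles were 0.65 ± 1.06 in diabetic and 0.86 ± 1.06 in control mice, neither of which passed (adjusted p = 0.63 and 0.50), and the diabetic one turned to -0.03 with median-of-ratios scaling. Within the first set Atp6v0c rose by 1.14 (adjusted p = 0.0049) and 1.40 (adjusted p = 0.0043), and the muscles did not overlap there in either mouse group. In the second set the diabetic difference was -0.33 (adjusted p = 0.58). With terms for the library set in the limma fit, Atp6v0c rose by 1.07 in diabetic mice (adjusted p = 0.0027) and 1.49 in control mice (adjusted p = 0.00036). Of the 31-base words of all its annotated transcripts 11.9% occurred in 2 other genes of the annotation. Atp6v1d, part of the central stalk of V1, was parted by set in the other direction: it had 42.9 to 65.9 RPKM in second-set libraries and 18.7 to 35.2 in first-set libraries. Its differences between muscles were 0.16 ± 0.29 and 0.33 ± 0.29 (adjusted p = 0.66 and 0.35), with signs that turned with median-of-ratios scaling (-0.51 and -0.47). When same-numbered muscles were paired as blocks, both Atp6v0c (0.86, adjusted p = 0.018) and Atp6v1d (0.33, adjusted p = 0.034) passed in control mice. With terms for the library set Atp6v1d also passed in control mice (0.385, adjusted p = 0.024). Atp6v0c and Atp6v1d were the only members of the 37 whose library sets lay apart in the same direction in all 4 groups. The share of all tested genes that did so was not counted, and a set held only 2 to 4 libraries of a group.

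**Figure D3:**
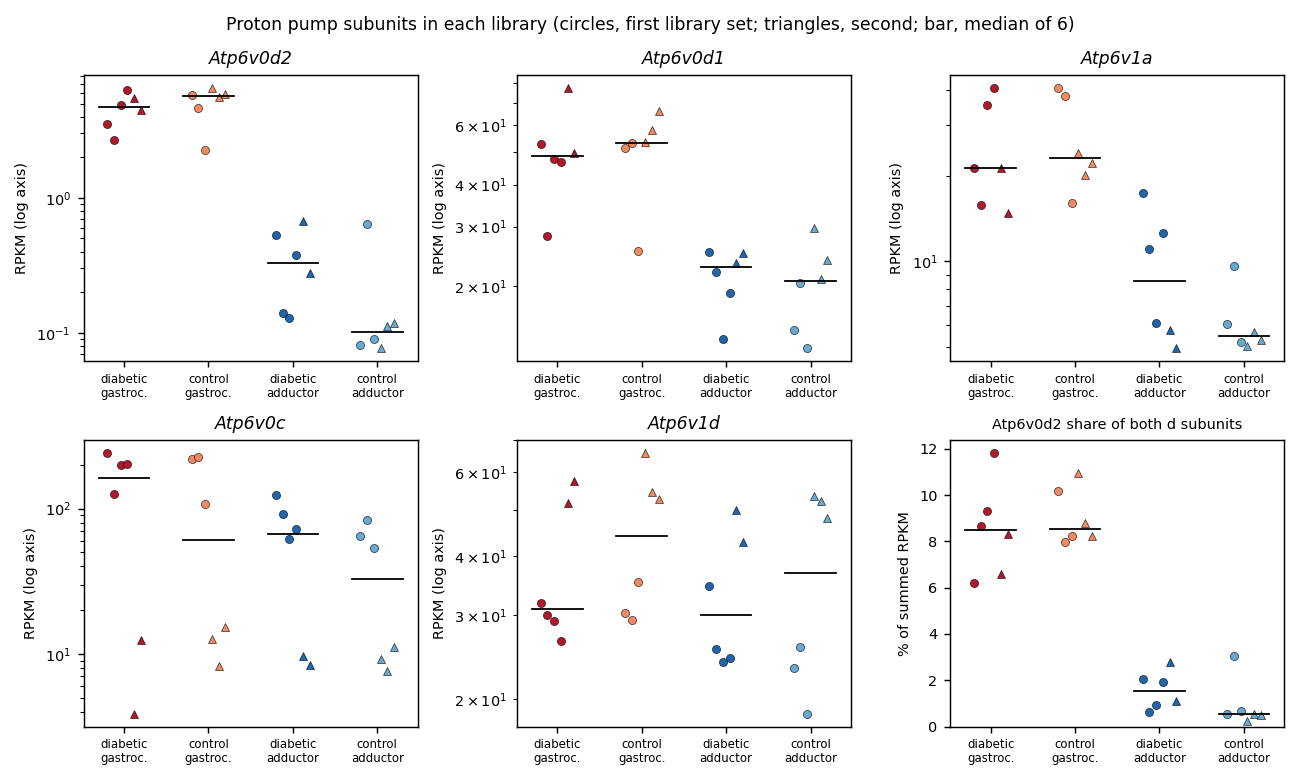
RPKM of 5 proton pump subunits in each library on log axes, and the share of Atp6v0d2 in the summed RPKM of both d subunits on a linear axis. Circles mark the first and triangles the second library set, and bars the median of 6. Atp6v0d2 and its share lie apart between the muscles, a description only, since the gene passed the filter through gastrocnemius alone. Atp6v0c and Atp6v1d lie apart between the library sets.

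Both regulators had differences below 0, and each passed in 1 mouse group. With median-of-ratios scaling both passed in both mouse groups, Tfeb at -0.98 and -1.46 (adjusted p = 0.0035 and 8.0e-05) and Sqstm1 at -1.47 and -1.27 (adjusted p = 0.00095 and 0.0033) in diabetic and control mice. Tfeb, the transcription factor that drives many lysosomal genes, had 14.3, 19.4 and 24.8 RPKM in diabetic gastrocnemius, 10.9, 14.7 and 23.99 in control gastrocnemius, 17.2, 23.5 and 35.1 in diabetic adductor, and 21.1, 22.7 and 40.1 in control adductor. The muscles overlapped in both mouse groups. Its difference of -0.32 ± 0.21 in diabetic mice did not pass (adjusted p = 0.20), and it fell by 0.68 ± 0.21 in control mice (adjusted p = 0.0069). Within the first and second library sets the control difference was -0.56 (adjusted p = 0.10) and -0.80 (adjusted p = 0.027). Sqstm1, the autophagy receptor p62, had 112, 126 and 201 RPKM in diabetic gastrocnemius, 112, 143 and 217 in control gastrocnemius, 145, 231 and 464 in diabetic adductor, and 129.7, 204 and 369 in control adductor. Here too the muscles overlapped. It fell by 0.78 ± 0.29 in diabetic mice (adjusted p = 0.022) and differed by -0.46 ± 0.29 in control mice (adjusted p = 0.16). The diabetic value rested on adductor library 1, the highest, without which it was -0.60 with an adjusted p of 0.070, and it was -1.08 and -0.20 within the first and second library sets.

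Counted by library, 23 of 37 members (62.2%) had every diabetic gastrocnemius library above every diabetic adductor library, against 29.0% of all tested genes. In control mice 22 of 37 members (59.5%) did so, against 33.3% of all tested genes. Atp6v0d2, tested only through its level in gastrocnemius, is among both. No member had all gastrocnemius libraries below all adductor libraries in either mouse group, against 2.33% of all tested genes in diabetic and 3.0% in control mice.

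Macrophage markers moved with the members. Of 12 such markers 11 rose in gastrocnemius in each mouse group, against 48.1% of all tested genes in diabetic and 54.4% in control mice. Their median log2 differences were 3.13 in diabetic and 3.32 in control mice. Their summed RPKM ran from 719 to 1979 in diabetic gastrocnemius, 552.5 to 2216 in control gastrocnemius, 95.6 to 155 in diabetic adductor and 56.0 to 373 in control adductor. The exception was the scavenger receptor Cd163, at a median of 2.24, 2.84, 2.92 and 2.92 RPKM in the same groups. All 7 fibroblast markers and all 6 tested markers of regenerating fibres rose as well, with medians of 1.35 and 4.98 in diabetic and 1.65 and 5.01 in control mice. Neutrophil markers were low, with sums of 0.994 to 20.3 RPKM in any library, and Mpo reached at most 0.190 RPKM. The part of these cells in the lysosomal differences was not tested.

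In 3 libraries macrophage markers and members stood out in the same way. Control gastrocnemius 3 was the lowest of its group for 26 of the 37 members, and its macrophage markers summed to 552.5 RPKM, beside 1385 to 2216 in the other 5. Diabetic gastrocnemius 2 was the lowest of its group for 21 members, with a macrophage sum of 719 RPKM beside 1258 to 1979. Control adductor 2 was the highest of its group for 20 members, with a macrophage sum of 373 RPKM beside 56.0 to 197. How often each library was lowest or highest over all tested genes was not counted. The median-of-ratios scaling factor of control adductor 2 was 0.8883, the highest of its group (0.6859 to 0.7804 in the others). Those of control gastrocnemius 3 (1.135) and diabetic gastrocnemius 2 (1.176) were not the lowest of their groups. Without these 3 libraries 28 members rose and 2 fell in diabetic mice and 29 rose and 2 fell in control mice, and the difference of Ctss was 4.30 and 5.31. The shares of all tested genes without these libraries are not given here. With all libraries 48.1% of tested genes rose in diabetic and 54.4% in control mice. Control gastrocnemius 3 and diabetic gastrocnemius 2 also had the lowest sums of regenerating fibre markers in their groups (1068 and 1059 RPKM). Their mature fibre markers summed to 59860 and 60680 RPKM, beside 15580 to 32130 in the other first-set and 42410 to 66720 in the second-set gastrocnemius libraries. Control adductor 2 had the highest fibroblast marker sum of its group (1085 RPKM, beside 211.5 to 516.8). The part of any of these cells in the library differences was not tested. Other libraries did not follow: diabetic adductor 1 and control adductor 6 had the lowest macrophage sums of their groups (95.6 and 56.0 RPKM) but were the highest for 9 and 10 members.

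**Figure D4:**
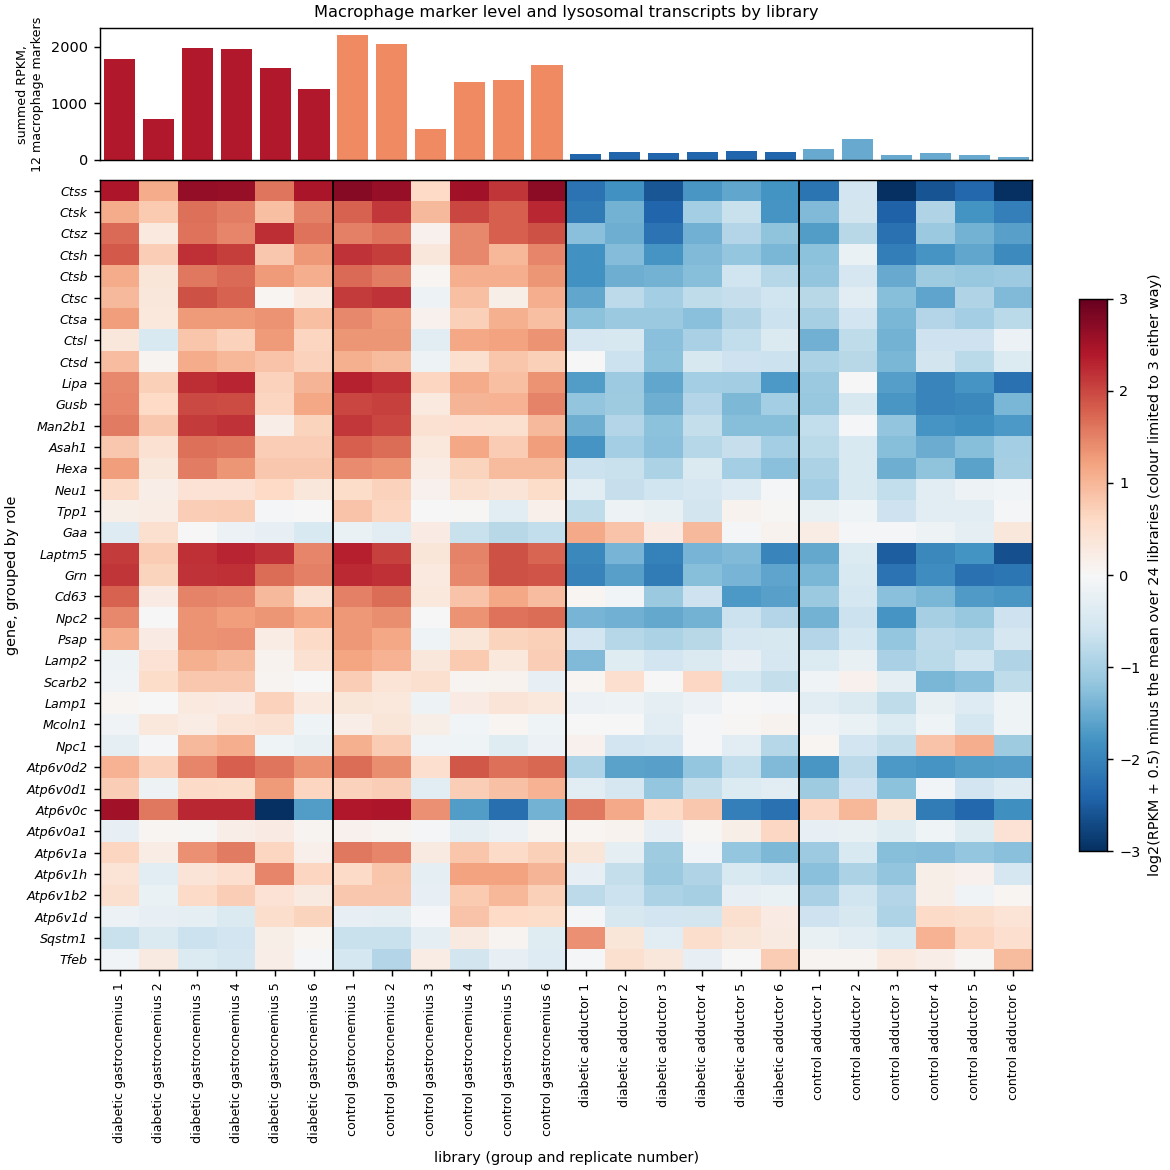
Summed RPKM of 12 macrophage markers in each library (bars, linear axis from 0) above a colour map of log2(RPKM + 0.5) of each member minus its mean over the 24 libraries. Red is above and blue below the mean, and colours are limited to 3 either way. The gastrocnemius libraries with the lowest bars, diabetic 2 (719 RPKM) and control 3 (552.5 RPKM), are also the palest gastrocnemius libraries for Ctss, Laptm5 and Grn.

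Lysosomal genes outside the 37 were counted in the same fit. The shares of all tested genes in that fit were 48.1% higher and 8.83% lower in diabetic mice, and 54.4% and 8.7% in control mice. Of 27 further hydrolases 22 rose and 0 fell in diabetic mice and 23 rose and 0 fell in control mice, with medians of 1.75 and 1.91. Lgmn, the asparaginyl endopeptidase legumain, rose by 3.42 ± 0.33 in both mouse groups. Of 12 tested further V-ATPase subunits 7 rose and 1 fell in diabetic mice and 8 rose and 1 fell in control mice, with medians of 0.63 and 0.70, near the all-gene medians of 0.55 and 0.66. Tcirg1, the a3 form of the large V0 subunit and an alternative to Atp6v0a1, had the largest difference. It averaged 25.0 ± 10.5 RPKM in diabetic gastrocnemius, 22.6 ± 10.7 in control gastrocnemius, 1.72 ± 0.32 in diabetic adductor and 1.89 ± 1.27 in control adductor (SD, n = 6 each), a rise of 3.40 ± 0.35 and 3.22 ± 0.35. Atp6v0e, a small V0 subunit, rose by 1.70 ± 0.38 and 1.79 ± 0.38.

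Of 14 tested genes of lysosomal sorting and membrane, 9 rose and 1 fell in diabetic mice and 10 rose and 1 fell in control mice, led by Cd68, a lysosomal glycoprotein of macrophages (3.71 ± 0.44 and 4.58 ± 0.44), and Gm2a, the activator of ganglioside breakdown (1.90 ± 0.20 and 1.92 ± 0.20). Of 18 autophagy genes, 5 rose and 3 fell in diabetic mice and 7 rose and 3 fell in control mice, with medians of 0.15 and 0.30, below the all-gene medians. Beside both lists, 48.1% of all tested genes rose and 8.83% fell in diabetic mice, and 54.4% and 8.7% did so in control mice. Tfe3, a relative of Tfeb, rose by 1.56 ± 0.22 and 1.61 ± 0.22, while the autophagy receptor Optn fell by 1.11 ± 0.25 and 1.18 ± 0.25.

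Diabetes was compared with control within each muscle. Both comparisons share their libraries with the muscle comparisons above. In gastrocnemius 0 of the 37 members passed by limma, against 0.00808% of all tested genes, and in adductor 0 passed, against 0.0323%. Voom on recovered reads also called 0 members. At an unadjusted p under 0.05 there were 0 members in gastrocnemius, against 1.26% of tested genes, and 2 in adductor, against 2.74%. No member had all diabetic libraries above or all below the control libraries in either muscle. The share of tested genes above was 0.0323% in gastrocnemius and 0.194% in adductor, and the share below was 0.0323% and 0.0242%.

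In gastrocnemius the members' log2 differences, diabetic minus control, ran from -0.57 (Ctsk) to 0.48 (Atp6v0c), with 19 of 37 above 0 and a median of 0.01 beside an all-gene median of -0.06. The library sets were uneven here, with 4 first-set and 2 second-set libraries in diabetic and 3 and 3 in control gastrocnemius. Atp6v0c, whose level differed between the sets, was at -0.23 with terms for the library set. Ctsk, with a median of 31.3 RPKM in diabetic and 47.2 in control gastrocnemius, differed by -0.57 ± 0.31 (unadjusted p = 0.081), and by -0.35 and -0.82 within the first and second library sets. Ctsl differed by -0.45 ± 0.30 (unadjusted p = 0.15) and Tfeb by 0.30 ± 0.21 (unadjusted p = 0.16).

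In adductor the differences ran from -0.30 (Npc1) to 0.68 (Atp6v0c), with 27 of 37 above 0 and a median of 0.09 beside an all-gene median of 0.04. The sets were again uneven, with 4 first-set and 2 second-set libraries in diabetic and 3 and 3 in control adductor. Within the second set Atp6v0c was at -0.04. Gaa and Scarb2 had the smallest p-values. Gaa, with a median of 84.6 RPKM in diabetic and 54.3 in control adductor, differed by 0.54 ± 0.23 (unadjusted p = 0.025, adjusted p = 1.0), and by 0.76 and 0.07 within the first and second library sets. Scarb2 differed by 0.60 ± 0.28 (unadjusted p = 0.042, adjusted p = 1.0), and by 0.38 and 0.50 within the sets. Atp6v0a1 was next at 0.27 ± 0.16 (unadjusted p = 0.097). An interval of 2 standard errors ran from 0.09 to 0.997 for Gaa and from 0.04 to 1.15 for Scarb2. These libraries cannot show that the levels are alike: an interval of 2 standard errors reached a log2 difference of 1 in either direction for 3 members in gastrocnemius and for 6 in adductor.

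The difference of the diabetes effects, gastrocnemius minus adductor, was called for 0 members by limma, against 0.0% of all tested genes, with 0 members and 154 genes at an unadjusted p under 0.05. It ran from -0.63 (Atp6v1a) to 0.36 (Npc1) with a median of -0.13 beside an all-gene median of -0.11. The smallest p-values were those of Atp6v1a (-0.63 ± 0.43, unadjusted p = 0.15), Atp6v0d2 (-0.47 ± 0.34, unadjusted p = 0.18) and Ctsl (-0.55 ± 0.43, unadjusted p = 0.21). Within the first and second library sets Atp6v1a gave -0.82 and -0.30, and Atp6v0d2 gave -0.03 and -0.92. The values of Atp6v0d2 are a description only, since it passed the filter through gastrocnemius alone and had 2 to 23 reads in adductor libraries.

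**Figure D5:**
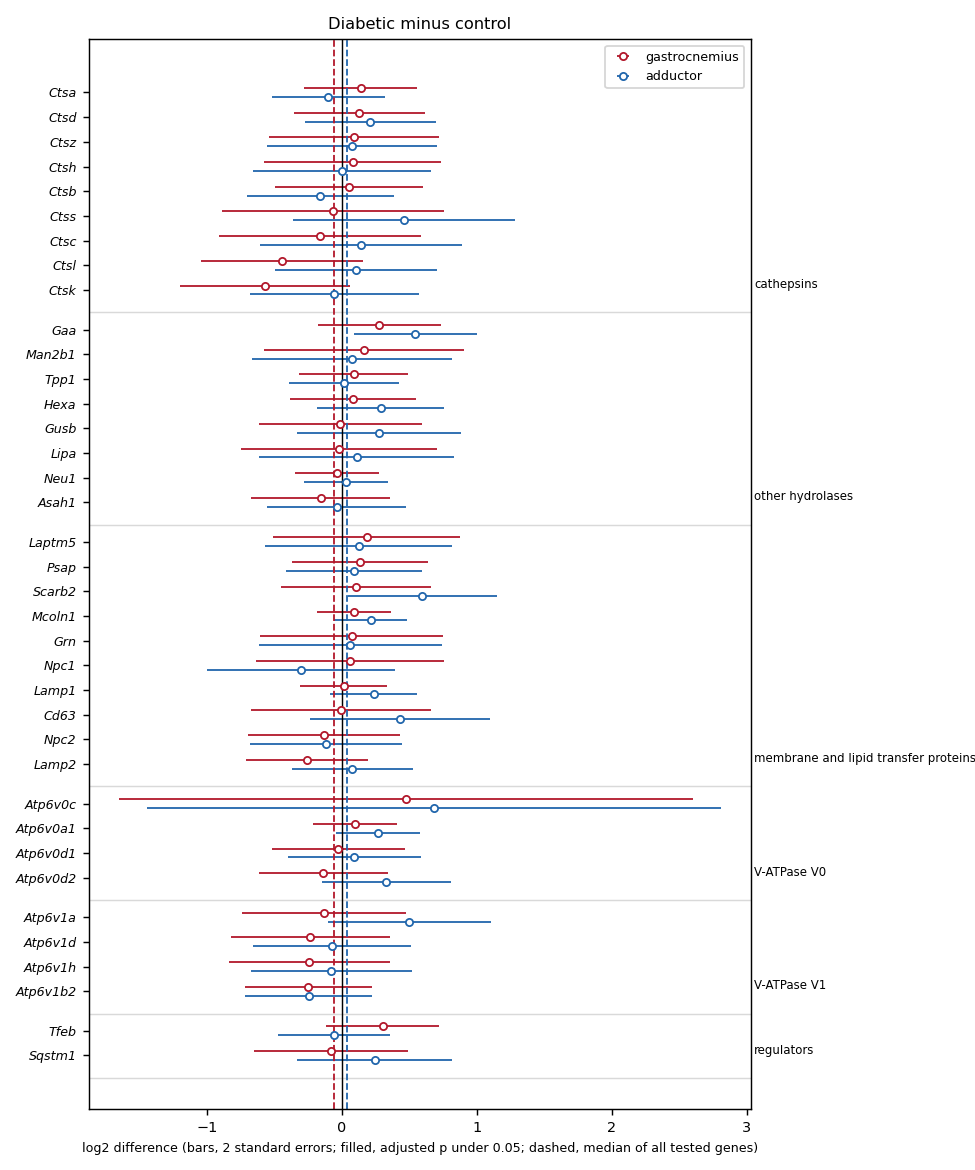
Log2 difference of RPKM + 0.5, diabetic minus control, for each of the 37 members in gastrocnemius (red) and adductor (blue), with bars of 2 standard errors either way and dashed lines at the medians of all tested genes. No point is filled, since 0 members passed an adjusted p of 0.05. The estimates lie between -0.57 and 0.48 in gastrocnemius and between -0.30 and 0.68 in adductor. The upper end in both muscles is Atp6v0c, which has the widest bars and whose level differed between the library sets.

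On the mm9 build of the table, Ctsk lay at chr3:95303132-95313309 and Ctss at chr3:95330708-95360327, both on the plus strand. Other plus-strand genes were Gaa at chr11:119129281-119147012, Grn at chr11:102291636-102298123, Laptm5 at chr4:130469249-130492063 and Tfeb at chr17:47873986-47929365. On the minus strand were Lipa at chr19:34566806-34601964, Atp6v0d2 at chr4:19803985-19849713 and Atp6v0c at chr17:24300833-24306374. Each value covers all annotated exons of the transcript, untranslated parts included.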

How the data were processed

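The authors deposited 1 table of RPKM for RefSeq transcripts, made with HOMER from reads over exons, per the file headers. The submitters' processing notes name TopHat, HOMER and mouse build mm9. The header names no strand option, so antisense and overlapping genes may share reads, and the handling of reads that match several places is not given in the sources used here. RPKM times length and library total gave whole reads, within 0.01, for 99.97% of values. A floor of 3 reads on 1 kb ran from 0.192 RPKM (deepest library) to 0.421 (shallowest), for counting error only.

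Genes with at least 1 RPKM in at least 6 libraries (12382) were fitted on the scale log2(RPKM + 0.5), using limma 3.58.1 (R 4.3.3), a mean for each of the 4 groups and a variance trend; 5 contrasts were tested with Benjamini-Hochberg adjustment. The fit was tested on simulated data. The members and lists were chosen with earlier results of these data known. Every member is named, and values by library are given for the 3 members of each role class with the largest control muscle difference, the 3 smallest p-values of the other contrasts and 13 genes named in the rule. Of each further pathway list, the 2 genes with the largest control muscle difference are named, except 1 gene that is not reported here. No 2 libraries of a group agreed within sampling noise (chi-square per degree of freedom 9.48 to 286 over 60 pairs). The labels do not say whether libraries came from separate animals, so the p-values cover only spread among these samples, which may be technical. Same-numbered muscles of 1 mouse group deviated together, with r of 0.254 to 0.736 over 12 pairs, though r within library sets was -0.0901 to 0.627, and same-numbered libraries of different mouse groups had r of -0.659 to 0.822, so a fit with the number as block was an alternative, beside other scalings, pseudocounts, filters, transcripts, library sets and voom.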

Additional observations from a re-analysis of the deposited data

Results flagged for a closer look

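In 19 of 148 groups of 6 libraries, 37 members in 4 groups, 1 library lay far from the other 5, its gap to the nearest, as a share of the group's range, exceeding Dixon's critical value. Chance marks about 1 in 20 groups, and members of 1 library are not independent.

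Control adductor 2 was the high library for 8 members. It had 112.2 RPKM of Ctsb (54.8 to 75.3 in the others), 15.17 of Ctsh (3.71 to 7.12), 30.46 of Ctss (3.94 to 9.61), 10.53 of Lipa (1.84 to 4.64) and 20.62 of Laptm5 (4.05 to 9.16). It also had 47.36 RPKM of Grn (13.3 to 24.7), 0.6425 of Atp6v0d2 (0.0769 to 0.119) and 9.638 of Atp6v1a (5.07 to 6.03).

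Control gastrocnemius 3 was the low library for 5 members. It had 61.22 RPKM of Ctsl (173 to 198 in the others), 208.4 of Lamp1 (275 to 303), 21.65 of Npc2 (54.6 to 70.8), 25.44 of Atp6v0d1 (51.2 to 66.0) and 21.52 of Atp6v1b2 (42.0 to 51.3). Diabetic gastrocnemius 2 was low for Npc2 at 22.22 RPKM (49.6 to 60.7 in the others), and diabetic gastrocnemius 5 was high for Lamp1 at 372.4 RPKM (231 to 283).

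Diabetic adductor 1 was low for Lamp2 at 11.58 RPKM (20.1 to 25.2 in the others) and high for Sqstm1 at 463.6 RPKM (145 to 260.5). Control adductor 6 was high for Atp6v0a1 at 26.99 RPKM (15.4 to 18.1 in the others) and for Tfeb at 40.11 RPKM (21.1 to 25.4).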

How the results depend on the processing

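The counts of members higher in gastrocnemius stayed within 1.5 times under all alternatives run, at 20 to 31 in diabetic and 22 to 33 in control mice. The share of all tested genes called higher moved with the scaling. It was 48.1% on the RPKM scale, 27.3% with median-of-ratios scaling and 24.5% with quantile normalization in diabetic mice. In control mice it was 54.4%, 28.3% and 25.5%. For the other alternatives this share is not given here, so their member counts have no share beside them. The counts of lower members moved. In diabetic mice, beside 2, they were 5 with median-of-ratios scaling and 5 with quantile normalization, 0 in the second library set, and 1 to 2 when each library was left out in turn (1 without diabetic adductor 1). In control mice, beside 1, they were 5 and 5 with those scalings, 0 and 3 within the first and second sets, 2 without the 3 libraries that stood apart (a setting chosen after seeing the data), and 1 to 2 without single libraries (2 without control gastrocnemius 3). With the replicate block, pairing the muscles of 1 number, 28 members were higher and 2 lower in diabetic mice, and 32 and 1 in control mice, where Atp6v0c (adjusted p = 0.018) and Atp6v1d (adjusted p = 0.034) passed. The block changed no other call of a member. The counts for the diabetes contrasts were 0 under every alternative run.

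Signs turned for single members. In diabetic mice median-of-ratios scaling and quantile normalization gave log2 differences of -0.284 and -0.0819 for Lamp1, -0.307 and -0.0238 for Scarb2, -0.415 and -0.343 for Mcoln1 and -0.511 and -0.248 for Atp6v1d, and median-of-ratios alone -0.0961 for Tpp1, -0.0541 for Npc1 and -0.0266 for Atp6v0c. The second set gave -0.0897 for Tpp1 and -0.329 for Atp6v0c. Atp6v0a1 was 0.0586 with set terms, 0.0303 in the first set and -0.132 to 0.0425 without single libraries, above 0 without diabetic adductor 6 or diabetic gastrocnemius 1 (0.00352). In control mice those scalings gave -0.283 and -0.0482 for Tpp1, -0.401 and -0.339 for Mcoln1, -0.533 and -0.347 for Npc1, -0.668 and -0.441 for Atp6v0a1 and -0.469 and -0.156 for Atp6v1d, and -0.181 for Lamp1 with median-of-ratios. The second set gave -0.509 for Npc1 and -0.0948 for Atp6v0a1. For diabetes in gastrocnemius Atp6v0c was -0.228 with set terms, -0.687 in the second set and -0.00396 (without control gastrocnemius 5) to 1.25 (without diabetic gastrocnemius 5) over single libraries left out. For diabetes in adductor the first set gave 0.155 for Npc1 and the second gave -0.041 for Atp6v0c. The difference of effects was -0.291 for Npc1 in the first set. The cause was not tested. Among the other values of single members, 26 lost and 23 gained the threshold and 1045 kept sign and side, not counting single libraries left out.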
